A study of Mus musculus with 8 samples.

Results

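The genes described here are 10 transcription factors that set the lineage of myeloid cells: the C/EBP factors Cebpa, Cebpb, Cebpd and Cebpe, the ETS factor Spi1 (PU.1), the zinc finger factors Gfi1, Klf4, Gata1 and Gata2, and the interferon regulatory factor Irf8. They were chosen by gene symbol, and all 10 were found among the 23361 genes of the authors' deposited table, Spi1 under its older symbol Sfpi1. Floxed cells carried Cdc73fl/fl and CreERT2, and wild type cells carried Cdc73 +/+ and CreERT2. Both were established mouse lines of acute myeloid leukaemia in the 129S6 strain, derived from bone marrow with the fusion oncogene MLL-AF9 and grown with interleukin 3, and both received 7.5 nM 4-hydroxytamoxifen (4OHT), the ligand that activates CreERT2. RNA was taken at 24 or 48 h, so the 4 groups were floxed and wild type cells at 24 h and floxed and wild type cells at 48 h, with 2 biological duplicates each. The sources used here do not say whether a line was 1 clone, and no untreated cells were analysed here, so a difference between the lines that preceded 4OHT is part of every value below.

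Levels are FPKM, fragments per kilobase of transcript, normalised to the size of the library. The table gives 1 FPKM value per gene and group with the duplicates already combined, so no value has an SD and no spread between duplicates could be computed. A gene is called higher or lower where the authors' q-value is under 0.05. In bulk RNA, a change in the share of cells of one kind and a change of RNA per cell cannot be told apart.

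C/EBP factors bind DNA as dimers through a basic leucine zipper. In mouse blood formation Cebpa is needed for the step into the granulocyte and monocyte lineage, while Cebpe acts late, in the formation of the secondary granules of neutrophils. PU.1 is needed for macrophages and granulocytes and activates their growth factor receptors. Gfi1 is a repressor that favours neutrophils over monocytes, Irf8 favours monocytes and dendritic cells, and Klf4 acts in the differentiation of monocytes. Gata1 drives red cell, megakaryocyte, eosinophil and mast cell programs, and Gata2 acts in stem cells and early progenitors.

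Cdc73, the deleted gene, was reduced in floxed cells at each time, at 5.96 FPKM in floxed and 26.2 FPKM in wild type cells at 24 h, and at 5.45 FPKM in floxed and 26.9 FPKM in wild type cells at 48 h. The sums of FPKM over all genes were 656874 in floxed and 665619 in wild type cells at 24 h, and 699193 in floxed and 653299 in wild type cells at 48 h. Neutrophil and monocyte marker genes were expressed in all 4 groups. Of 11 neutrophil markers, 4 were called higher and 3 lower at 24 h, and 10 higher and 0 lower at 48 h (medians -0.04 and 1.73). Of 10 tested monocyte markers, 0 were higher and 4 lower at 24 h, and 7 were higher and 2 lower at 48 h (medians -0.30 and 0.61). Over all tested genes of at least 1 FPKM in a group, 13.4% were called higher and 14.2% lower at 24 h. At 48 h these shares were 25.7% higher and 31.0% lower. Of 9 lymphoid markers in the table, none reached 1 FPKM in any group, and their summed level lay between 0.0726 and 0.412 FPKM. Of 10 erythroid markers, only the transferrin receptor gene Tfrc, which dividing cells of many kinds use, reached that level, and it was called lower at 48 h. Dendritic markers summed to 5.51 FPKM in floxed and 6.64 in wild type cells at 24 h and to 20.2 FPKM in floxed and 3.81 FPKM in wild type cells at 48 h. Only Cd74 and H2-Ab1 of these 9 reached 1 FPKM. With no limit on low values, 1 was called higher and 1 lower at 24 h, and 3 (Cd74, Itgax and Xcr1) higher and 1 lower at 48 h. The lower one at each time was Flt3, a receptor of progenitors and dendritic cells, at 0.0300 FPKM in floxed and 0.442 FPKM in wild type cells at 24 h and at 0.0547 FPKM in floxed and 0.491 FPKM in wild type cells at 48 h.

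The 10 factors covered a wide range of levels, with Spi1, Cebpb and Gfi1 among the highest 4 in every group. In floxed cells at 24 h the order was Spi1 at 215 FPKM, Cebpe at 148, Cebpb at 124, Gfi1 at 119, Cebpd at 57.9, Cebpa at 35.7, Irf8 at 29.4, Klf4 at 12.0, Gata1 at 0.856 and Gata2 at 0.0259 FPKM. In wild type cells at 24 h it was Spi1 at 215 FPKM, Cebpb at 96.2, Gfi1 at 83.2, Cebpe at 69.4, Cebpa at 68.8, Irf8 at 36.6, Cebpd at 33.3, Klf4 at 4.56, Gata2 at 0.221 and Gata1 at 0.0723 FPKM. At 48 h Cebpe headed the order in floxed cells at 313 FPKM, ahead of Spi1 at 271 FPKM. In wild type cells at 48 h Spi1 came first at 194 FPKM, and Cebpe, at 70.3 FPKM, stood below Gfi1, Cebpb and Cebpa. Whether neighbours in these orders differ beyond the spread of the duplicates could not be judged from 1 value per group. All but Gata2 reached 1 FPKM in at least 1 group, and Gata1 did so only in floxed cells at 48 h.

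**Figure D1:**
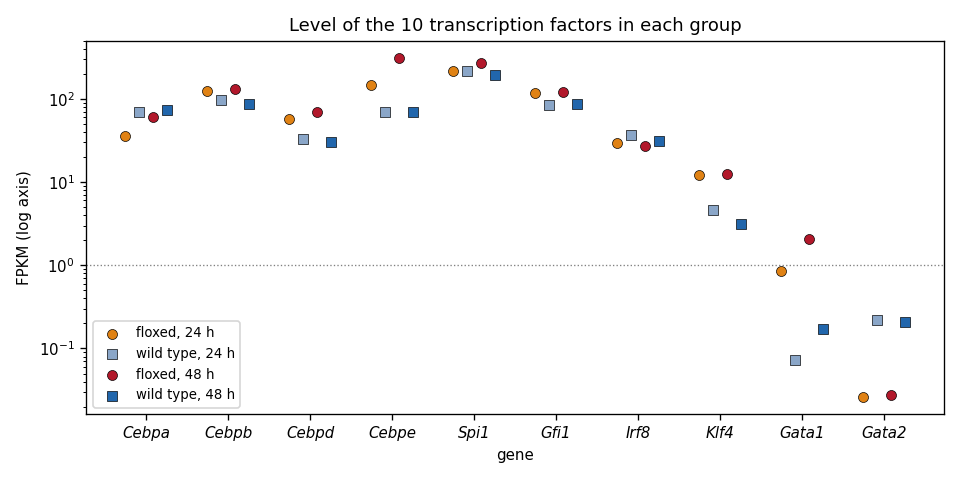
FPKM on a log axis for each of the 10 genes, with 1 point per group (circles, floxed cells; squares, wild type cells) and a dotted line at 1 FPKM. Points of floxed cells lie above those of wild type cells at the same time for Cebpb, Cebpd, Cebpe, Gfi1, Klf4 and Gata1 at both times, and below them for Cebpa, Irf8 and Gata2.

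Most of the factors were higher in floxed cells, and this was so at both times. At 24 h, 6 of the 10 were called higher (Cebpb, Cebpd, Cebpe, Gfi1, Klf4 and Gata1) and 1 was called lower (Cebpa). At 48 h, 7 were called higher, namely those 6 and Spi1, and 0 were called lower. Over all tested genes of at least 1 FPKM in a group, a call was made for 27.6% at 24 h, with 13.4% higher and 14.2% lower. At 48 h the share was 56.8%, with 25.7% higher and 31.0% lower. Of the 9 tested factors, 77.8% were called at each time. The median difference on the log2(FPKM + 1) scale, floxed minus wild type, was 0.44 over the 10 factors at 24 h and 0.55 at 48 h, against -0.01 and -0.06 over the 11158 genes of at least 1 FPKM. Gata1 passed that limit only through the group where it was highest, so its place among the 9 is set in part by its difference. Lifting the limit adds only Gata2, which has no call. The 6 factors called higher at 24 h were also called higher at 48 h, and none was called in opposite directions. How often all genes kept or turned their direction between the times was not computed.

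**Figure D2:**
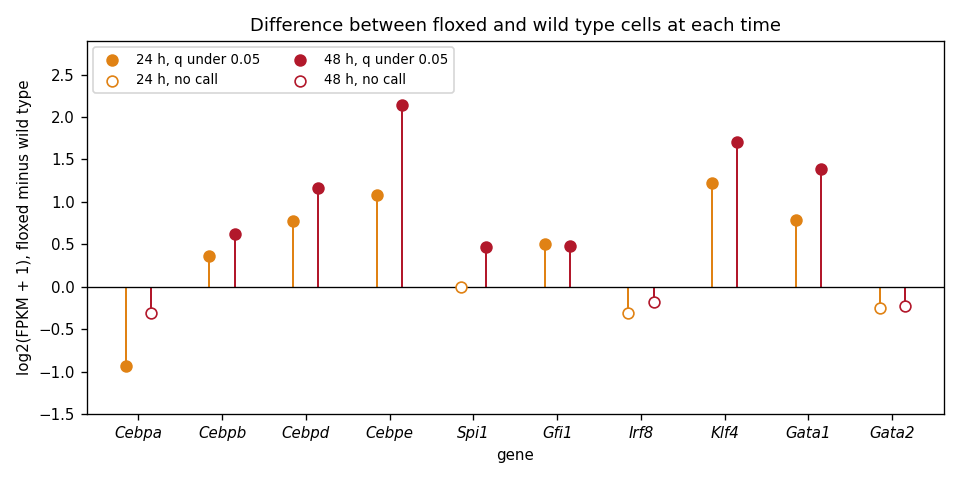
Difference on the log2(FPKM + 1) scale, floxed minus wild type, for each gene at 24 h (left stem of each pair) and 48 h (right stem), with filled points for q under 0.05 and open points for no call. Cebpe, Klf4 and Gata1 have the tallest stems at 48 h, at 2.14, 1.71 and 1.39, and Cebpa is the gene called lower, at -0.93 at 24 h.

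Reference sequence is shown for the start regions of Klf4 and Gata1, which were among the members with the widest differences, of Cebpa, the one called lower, and of Gfi1, the one with a C/EBP motif match. The 250 bases before the annotated start are given 5′ to 3′ on the coding strand, from RefSeq on GRCm38.p6 (the assembly of mm10), in lower case with motif matches in capitals. They lie at chr7:35119043-35119292 for Cebpa (plus strand), chr4:55532476-55532725 for Klf4 (minus strand), chrX:7967911-7968160 for Gata1 (minus strand) and chr5:107725806-107726055 for the upstream start of Gfi1 (minus strand). GENCODE M21, the source of the gene coordinates below, places these genes somewhat differently. By its coordinates the Gata1 window and most of this Gfi1 window lie within the gene. The start used for Klf4 was not found in its GENCODE transcripts.
Cebpa: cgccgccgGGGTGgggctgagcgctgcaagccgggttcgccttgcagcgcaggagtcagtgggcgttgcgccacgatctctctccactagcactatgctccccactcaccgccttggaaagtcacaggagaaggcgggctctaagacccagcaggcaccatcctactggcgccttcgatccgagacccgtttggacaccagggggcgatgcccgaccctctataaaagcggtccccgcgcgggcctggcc
Klf4: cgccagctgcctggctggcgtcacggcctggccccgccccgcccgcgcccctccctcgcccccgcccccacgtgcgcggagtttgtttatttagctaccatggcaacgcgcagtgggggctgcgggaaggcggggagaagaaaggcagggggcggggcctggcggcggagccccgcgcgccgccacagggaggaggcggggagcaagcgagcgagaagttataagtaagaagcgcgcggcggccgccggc
Gata1: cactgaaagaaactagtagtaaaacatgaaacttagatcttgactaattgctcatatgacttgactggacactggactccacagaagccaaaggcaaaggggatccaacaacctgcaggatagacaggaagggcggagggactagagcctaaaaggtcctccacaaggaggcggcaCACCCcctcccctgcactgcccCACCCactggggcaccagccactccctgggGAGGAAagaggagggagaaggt
Gfi1: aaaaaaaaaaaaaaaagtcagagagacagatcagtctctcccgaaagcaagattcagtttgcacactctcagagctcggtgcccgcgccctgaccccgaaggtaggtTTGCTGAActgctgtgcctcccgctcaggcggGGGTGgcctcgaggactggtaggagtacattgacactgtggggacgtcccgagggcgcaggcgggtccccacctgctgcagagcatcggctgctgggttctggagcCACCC
The motifs searched, on both strands and over 300 bases including 50 after the start, were GATAA for GATA factors, GAGGAA for PU.1 and related ETS factors, TTGCNNAA for C/EBP, AATCNC for GFI, a pair of GAAA runs spaced by any 2 bases for IRF and CACCC for KLF factors, where N is any base. In these printed stretches no matches overlap. CACCC or its complement was found for Cebpa, Cebpb, Gfi1, Gata1 and Gata2, and in 57.5% of all 32851 windows of that length. GAGGAA was found among the members for Gata1 alone (28.3% of all windows), TTGCNNAA for Gfi1 alone (10.8%) and AATCNC for Irf8 alone (33.2%). GATAA (25.4% of all windows) and the IRF motif (3.44%) were found in no member's window. The Klf4 window held none of the 6 motifs, which says only that these letters are not in this stretch. Windows were read for 7 of the members, and those of Cebpd, Cebpe and Spi1 were not used here.

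Within the C/EBP family, Cebpe, Cebpd and Cebpb were higher in floxed cells while Cebpa was lower at 24 h. Cebpe lies on the minus strand of chromosome 14 between 54710360 and 54712174 (ENSMUSG00000052435.7; all gene coordinates are 1-based, from GENCODE M21 on the assembly of mm10). It stood at 148 FPKM in floxed and 69.4 FPKM in wild type cells at 24 h, and at 313 FPKM in floxed and 70.3 FPKM in wild type cells at 48 h, which is 2.13-fold and 4.45-fold higher. For these differences q = 0.000449 and q = 0.000165 stand in the authors' deposited table, the smallest q it holds at each time. That smallest q is shared by 1328 genes at 24 h and by 3684 genes at 48 h, so it does not rank a gene among them. Its difference was above those of 97.9% of all genes of at least 1 FPKM at 24 h and 98.0% at 48 h. In floxed cells the level at 48 h was 2.12 times that at 24 h, against 1.01 times in wild type cells. The table leaves no test of that change with time.

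Cebpa was the one factor called lower, and only at 24 h. The gene lies on the plus strand of chromosome 7 between 35119293 and 35121928 (ENSMUSG00000034957.10). It stood at 35.7 FPKM in floxed and 68.8 FPKM in wild type cells at 24 h, which is 51.8% of the wild type level (q = 0.000449 in the authors' deposited table). At 48 h it stood at 59.7 FPKM in floxed and 74.3 FPKM in wild type cells, 80.3% of the wild type level, with no call (q = 0.0922 in the authors' deposited table). The level in floxed cells at 48 h was 1.67 times that at 24 h, and that in wild type cells 1.08 times. Whether the difference itself changed between the times was not tested.

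Cebpd and Cebpb, which are induced by inflammatory signals in many cell types, rose at both times by smaller amounts than Cebpe. Cebpd, on the plus strand of chromosome 16 between 15887286 and 15891031 (ENSMUSG00000071637.5), stood at 57.9 FPKM in floxed and 33.3 FPKM in wild type cells at 24 h and at 69.4 FPKM in floxed and 30.3 FPKM in wild type cells at 48 h. These are 1.74-fold and 2.29-fold higher, each with the smallest q of its time in the authors' deposited table, which many genes share. The gene shares its locus entry in that table with 2310008H04Rik, an older symbol of Spidr, which overlaps it on the opposite strand, so how reads were divided between them is uncertain. That neighbour stood at 11.3 FPKM in floxed and 12.96 FPKM in wild type cells at 24 h and at 9.22 FPKM in floxed and 13.9 FPKM in wild type cells at 48 h, with no call. Cebpb, on the plus strand of chromosome 2 between 167688915 and 167690418 (ENSMUSG00000056501.3), stood at 124 FPKM in floxed and 96.2 FPKM in wild type cells at 24 h and at 132 FPKM in floxed and 85.4 FPKM in wild type cells at 48 h. Its differences of 1.29-fold and 1.54-fold have q = 0.0350 and q = 0.000863 in the authors' deposited table. Tmem189 overlaps Cebpb on the opposite strand in GENCODE M21 and was called higher too, at 31.2 FPKM in floxed and 24.3 FPKM in wild type cells at 24 h and at 50.3 FPKM in floxed and 26.0 FPKM in wild type cells at 48 h. The sources used here do not say whether strand was used in counting, and the part of Tmem189 reads in the Cebpb value was not tested.

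The make-up of C/EBP transcripts differed between the lines. Summed over the 4 genes, C/EBP transcripts stood at 366 FPKM in floxed and 268 FPKM in wild type cells at 24 h, and at 574 FPKM in floxed and 260.3 FPKM in wild type cells at 48 h. Cebpa made up 9.75% of the sum in floxed and 25.7% in wild type cells at 24 h, and 10.4% in floxed and 28.5% in wild type cells at 48 h. Cebpe made up 40.4% in floxed and 25.9% in wild type cells at 24 h, and 54.5% in floxed and 27.0% in wild type cells at 48 h. The ratio of Cebpe to Cebpa was 4.14 in floxed and 1.01 in wild type cells at 24 h, and 5.24 in floxed and 0.946 in wild type cells at 48 h. These shares are ratios of the authors' group values with no test. The summed level of the 11 neutrophil markers was 8051 FPKM in floxed and 9045 FPKM in wild type cells at 24 h, and 25269 FPKM in floxed and 6826 FPKM in wild type cells at 48 h. S100a8 and S100a9, whose products form calprotectin, made up most of these sums, and the other 9 markers summed to 1127 FPKM in floxed and 1026 FPKM in wild type cells at 24 h, and to 1973 FPKM in floxed and 699.8 FPKM in wild type cells at 48 h. Without S100a8 and S100a9, the sum at 24 h was thus higher in floxed cells, by less than the difference in Camp alone. Camp stood at 517 FPKM in floxed and 365 FPKM in wild type cells at 24 h. Mmp8, Cxcr2 and Fpr1 were also called higher then, and Lcn2 and Mmp9 were called lower. The summed level of the 12 monocyte markers, most of it from Ly6c2 and Lyz2, was 3273 FPKM in floxed and 3366 FPKM in wild type cells at 24 h, and 6507 FPKM in floxed and 2699.5 FPKM in wild type cells at 48 h. The part of more mature cells in the C/EBP values was not tested.

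**Figure D3:**
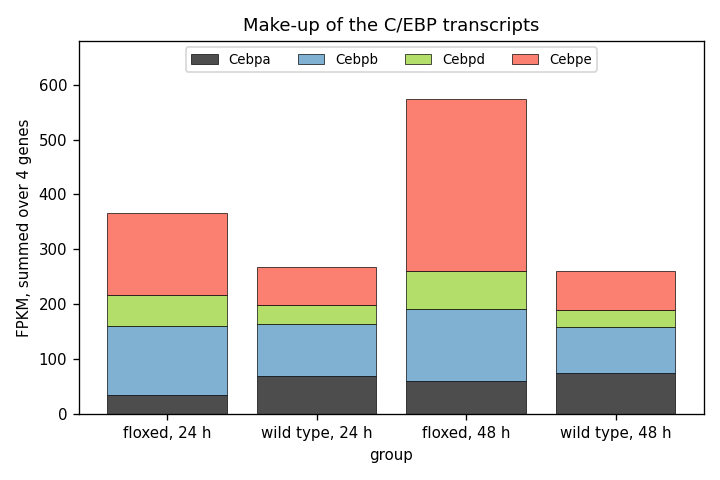
FPKM of Cebpa, Cebpb, Cebpd and Cebpe stacked from 0 in each group. The bars of wild type cells reach 268 and 260.3 FPKM with a similar make-up at both times, and those of floxed cells reach 366 and 574 FPKM, with Cebpe as the largest part of each.

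Spi1 had no call at 24 h and was higher at 48 h. It lies on the plus strand of chromosome 2 between 91082390 and 91115756 (ENSMUSG00000002111.8). It stood at 215 FPKM in both floxed and wild type cells at 24 h (q = 0.987 in the authors' deposited table) and at 271 FPKM in floxed and 194 FPKM in wild type cells at 48 h. The difference at 48 h is 1.39-fold, with q = 0.0105 in the authors' deposited table. Spi1 was the most abundant of the 10 in 3 of the 4 groups.

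Of the factors that favour opposite choices between neutrophils and monocytes, Gfi1 was higher in floxed cells at both times and Irf8 had no call. Gfi1, on the minus strand of chromosome 5 between 107716657 and 107726036 (ENSMUSG00000029275.18), stood at 119 FPKM in floxed and 83.2 FPKM in wild type cells at 24 h and at 121 FPKM in floxed and 87.0 FPKM in wild type cells at 48 h. The differences of 1.43-fold and 1.40-fold have q = 0.00216 and q = 0.00854 in the authors' deposited table. Irf8, on the plus strand of chromosome 8 between 120736358 and 120756694 (ENSMUSG00000041515.10), stood at 29.4 FPKM in floxed and 36.6 FPKM in wild type cells at 24 h (q = 0.0728 in the authors' deposited table) and 27.1 FPKM in floxed and 30.8 FPKM in wild type cells at 48 h (q = 0.349 there). The ratio of Gfi1 to Irf8 was 4.03 in floxed and 2.27 in wild type cells at 24 h, and 4.49 in floxed and 2.82 in wild type cells at 48 h.

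Klf4 was higher in floxed cells at both times. It lies on the minus strand of chromosome 4 between 55527143 and 55532466 (ENSMUSG00000003032.8). Klf4 stood at 12.0 FPKM in floxed and 4.56 FPKM in wild type cells at 24 h, and at 12.4 FPKM in floxed and 3.09 FPKM in wild type cells at 48 h. It was 2.63-fold and 4.01-fold higher, with the smallest q of each time in the authors' deposited table, which many genes share. Between the times its level differed by a factor of 1.03 in floxed cells, while in wild type cells the value at 48 h was 0.678 times that at 24 h. The wider fold at 48 h thus comes from the wild type value more than from the floxed value.

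Gata1 and Gata2 were low in all groups, and Gata1 was higher in floxed cells at both times. Gata1, on the minus strand of chromosome X between 7959260 and 7978071 (ENSMUSG00000031162.14), stood at 0.856 FPKM in floxed and 0.0723 FPKM in wild type cells at 24 h, and at 2.08 FPKM in floxed and 0.174 FPKM in wild type cells at 48 h. These differences have q = 0.00185 and q = 0.000165 in the authors' deposited table. On the log2(FPKM + 1) scale the differences were 0.79 and 1.39, and their size depends on the pseudocount because the values are so low: it was 2.47 and 2.99 with 0.1, and 0.21 and 0.45 with 5. At 2.08 FPKM in floxed cells at 48 h, Gata1 was above 13.7% of all genes of at least 1 FPKM. Gata2, on the plus strand of chromosome 6 between 88193891 and 88207032 (ENSMUSG00000015053.14), stood at 0.0259 FPKM in floxed and 0.221 FPKM in wild type cells at 24 h, and at 0.0273 FPKM in floxed and 0.205 FPKM in wild type cells at 48 h. The authors' deposited table gives q = 1 for it at both times, which leaves it without a call.

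Several eosinophil marker genes were, like Gata1, higher in floxed cells. Of all tested genes, 13.4% were called higher and 14.2% lower at 24 h. At 48 h, 25.7% were called higher and 31.0% lower. Of 6 tested eosinophil markers, 4 were called higher and 0 lower at each time. Epx, Ear1 and Ear6 reached 1 FPKM only in floxed cells and so had to be higher, and of the other 3, 1 was called higher at 24 h and 2 at 48 h. The summed level of the 8 in the table was 150.4 FPKM in floxed and 22.9 FPKM in wild type cells at 24 h, and 123 FPKM in floxed and 14.1 FPKM in wild type cells at 48 h. In floxed cells this sum was smaller at 48 h than at 24 h, whereas Gata1 was 2.42 times as high. Prg2 made up most of the sum in floxed cells, at 92.6 FPKM at 24 h and 66.6 FPKM at 48 h. Not every marker was lower at 48 h: Ear1 stood at 12.3 FPKM in floxed cells at 24 h and at 12.5 FPKM at 48 h. These changes with time were not tested. Epx, the eosinophil peroxidase, stood at 11.6 FPKM in floxed and 0.0526 FPKM in wild type cells at 24 h and at 5.49 FPKM in floxed and 0.0331 FPKM in wild type cells at 48 h. Among receptor genes of mature eosinophils, Il5ra and Ccr3 stayed low. Il5ra stood at 0.0546 FPKM in floxed and 0.0248 FPKM in wild type cells at 24 h. At 48 h it stood at 0.0710 FPKM in floxed and 0.0303 FPKM in wild type cells, and Ccr3 stood at no more than 0.109 FPKM in any group. Siglecf, listed as Siglec5, was above 1 FPKM in every group, with no call. It stood at 1.62 FPKM in floxed and 1.98 FPKM in wild type cells at 24 h. At 48 h it stood at 2.36 FPKM in floxed and 2.59 FPKM in wild type cells. Of 4 tested mast cell and basophil markers, 2 were higher and 2 lower at each time, with Ms4a2 reaching 1 FPKM only in floxed cells, and Fcer1a, a defining receptor subunit of both cell types, was listed at 0 in every group. Of the 8 megakaryocyte markers, 1 of 3 tested was higher at 24 h and 4 of 4 at 48 h, but Itga2b, Gp1ba and Vwf reached 1 FPKM only in floxed cells at 48 h and so had to be higher there, which leaves Pf4. Under that limit Gp9 was called lower at 48 h. The 8 markers had a summed level of 3.95 FPKM in floxed and 3.43 FPKM in wild type cells at 24 h and of 16.1 FPKM in floxed and 2.37 FPKM in wild type cells at 48 h. The part of such cells in the Gata1 values was not tested.

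**Figure D4:**
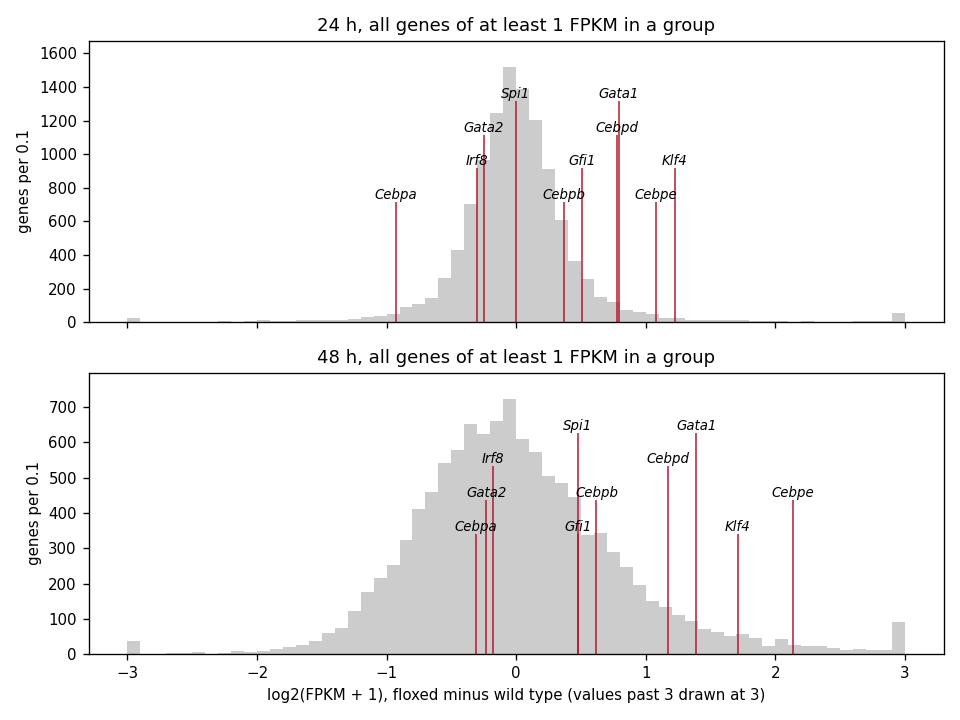
Distribution of the log2(FPKM + 1) difference, floxed minus wild type, over the 11158 genes of at least 1 FPKM (grey, genes per bin of 0.1), with a red line at each of the 10 factors. At 24 h Cebpa lies far to the left at -0.93 and Klf4 farthest right at 1.22, and at 48 h the wider distribution has Cebpe farthest right of the 10, at 2.14.

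Related transcription factors did not share 1 direction. Over all tested genes, calls also went both ways, with 27.6% called at 24 h and 56.8% at 48 h. Among bZIP relatives and regulators of C/EBP proteins, 1 of 5 tested was higher and 0 lower at 24 h (20% called). At 48 h, 1 was higher and 1 lower (40%). The higher one, which reached 1 FPKM only in floxed cells, was Trib1, a pseudokinase that directs C/EBPα protein to degradation, at 1.82 FPKM in floxed and 0.637 FPKM in wild type cells at 24 h and at 7.90 FPKM in floxed and 0.661 FPKM in wild type cells at 48 h. Cebpg, a dimer partner, stood at 15.3 FPKM in floxed and 13.2 FPKM in wild type cells at 24 h and at 17.7 FPKM in floxed and 14.3 FPKM in wild type cells at 48 h, with no call. Among 9 ETS and RUNX factors, 2 were higher and 3 lower at each time (55.6% called). Their median log2 difference was -0.14 at both. Erg, an ETS factor of stem cells that reached 1 FPKM only in floxed cells, was called higher at 2.16 FPKM in floxed and 0.556 FPKM in wild type cells at 24 h and at 2.59 FPKM in floxed and 0.638 FPKM in wild type cells at 48 h. Fli1, an ETS factor of blood progenitors and megakaryocytes, was 1.53-fold lower at the first time and 2.08-fold lower at the second.

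Cofactors of GATA and GFI proteins also went both ways, as did factors of monocytes. Of 6 tested GATA and GFI relatives and cofactors, 1 was higher and 1 lower at 24 h (33.3% called, median 0.11). At 48 h, 1 was higher and 2 lower (50% called, median -0.07). Nfe2, a bZIP factor of megakaryocytes and red cells, was 1.33-fold and 1.72-fold higher, and Lmo2, the adaptor of the GATA and TAL1 complex, stood at 103 FPKM in floxed and 149 FPKM in wild type cells at 24 h. Gfi1b, the relative of Gfi1 that acts in red cells and megakaryocytes, stayed under 1 FPKM in every group, with a call of higher at 48 h. Of the IRF and monocyte factors, 5 of 12 tested were higher and 3 lower at 24 h (66.7% called). At 48 h, 9 of 13 were higher and 1 lower (76.9% called). Maf, Egr1, Nr4a1 and Bcl6 reached 1 FPKM only in floxed cells and so had to be higher in at least 1 comparison, and of the other 9 factors, 3 were higher and 2 lower at 24 h and 5 were higher and 1 lower at 48 h. Klf2, which lies close to Klf4 in the KLF family, was 2.09-fold and then 6.26-fold higher. Bcl6, a repressor in macrophages and lymphocytes, stood at 5.21 FPKM in floxed and 0.178 FPKM in wild type cells at 48 h.

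Genes known as targets of C/EBP factors showed little common direction at 24 h, when more PU.1 targets were called lower than higher. Genes of both lists were mostly higher at 48 h. Over all tested genes, 13.4% were called higher and 14.2% lower at 24 h, and 25.7% higher and 31.0% lower at 48 h. Of 13 C/EBP targets, 3 were higher and 3 lower at 24 h (median -0.13), and 8 were higher and 3 lower at 48 h (median 1.21). Mmp8, a collagenase of neutrophil granules, was 1.92-fold and 8.34-fold higher, and Ctsg, the cathepsin of primary granules, was 2.97-fold and 4.34-fold lower. Elane and Prtn3, in this list, share their locus entry with each other and with further genes. Of 16 PU.1 targets, 1 was higher and 4 lower at 24 h (median -0.14). At 48 h, 11 were higher and 0 lower (median 0.65). Most of the C/EBP targets called higher at 48 h are also among the neutrophil or monocyte markers above. Several of the PU.1 targets called higher then are monocyte markers too. The counts of targets and of markers are thus not separate. Itgam, which encodes the integrin CD11b, stood at 47.3 FPKM in floxed and 47.7 FPKM in wild type cells at 24 h and was 2.18-fold higher at 48 h. Csf3r, the receptor of the granulocyte growth factor and a target of both factors, stood at 3.58 FPKM in floxed and 4.19 FPKM in wild type cells at 24 h and at 3.58 FPKM in floxed and 4.26 FPKM in wild type cells at 48 h, with no call.

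Of 10 tested genes that Gfi1 is known to repress, 5 were higher and 1 lower at 24 h, and 8 higher and 1 lower at 48 h (medians 0.17 and 0.86), with Spi1 and Irf8 among them. Egr1 of these reached 1 FPKM only in floxed cells. The shares over all tested genes were 13.4% higher and 14.2% lower at 24 h. They were 25.7% higher and 31.0% lower at 48 h. Gfi1 itself was higher at both times. Id2, an inhibitor of basic helix-loop-helix factors, stood at 35.3 FPKM in floxed and 3.54 FPKM in wild type cells at 48 h, and Meis1, a HOX partner, was 1.65-fold and 1.56-fold lower. Of the 3 tested Irf8 targets, 1 was higher and 1 lower at 24 h and 3 were higher at 48 h (medians -0.02 and 1.36), with Klf4 counted among them. Cybb, the heme-binding subunit of the phagocyte oxidase, stood at 62.0 FPKM in floxed and 87.8 FPKM in wild type cells at 24 h and at 156 FPKM in floxed and 60.1 FPKM in wild type cells at 48 h. Of 17 GATA targets, 4 of 6 tested were higher and 1 lower at 24 h, and 6 of 7 were higher and 1 lower at 48 h. The higher ones included the eosinophil genes Prg2 and Epx, which the eosinophil list above holds too, and the lower one was Kit, which was 1.51-fold and 3.16-fold lower. Epx, Ms4a2, Gp1ba and Itga2b reached 1 FPKM only in floxed cells, where they had to be higher, so the count is no measure of the whole list.

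**Figure D5:**
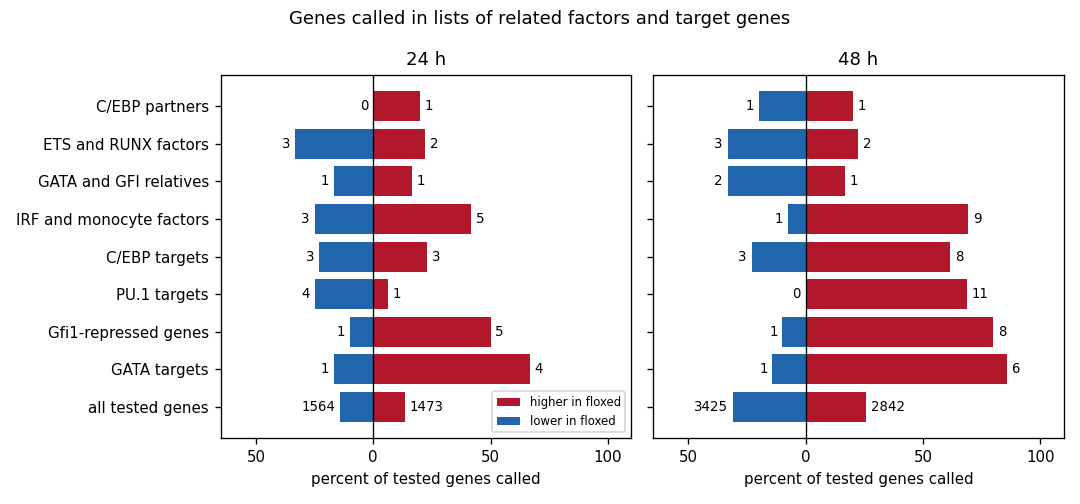
Percent of tested genes called higher (red, to the right of 0) or lower (blue, to the left of 0) in floxed cells at 24 h (left panel) and 48 h (right panel), with the number of genes at each bar. PU.1 targets have 1 higher and 4 lower at 24 h, and 11 higher and 0 lower at 48 h, beside 1473 higher and 1564 lower, and 2842 higher and 3425 lower, over all tested genes. Bars of lists with genes that reached 1 FPKM only in floxed cells, such as 4 GATA targets, are set in part by that limit.

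Over the 4 groups, the genes whose levels followed those of Cebpe, Klf4 and Gata1 most closely were found by the Euclidean distance between centred log2(FPKM + 1) values. These 3 members had the widest range on that scale, at 2.16, 1.71 and 1.52. Nearest to Cebpe were Grap (distance 0.06), Nmb (0.08) and Glul (0.10), and Glul, the glutamine synthetase gene, stood at 47.3 FPKM in floxed and 22.8 FPKM in wild type cells at 24 h and at 95.5 FPKM in floxed and 21.6 FPKM in wild type cells at 48 h. Nearest to Klf4 were Ppfibp2 (0.23), Ghr (0.24) and Slc38a6 (0.26). Nearest to Gata1 were Traf3ip3 (0.04), Ovgp1 (0.05) and Phf1 (0.07). With 4 values per gene, the likeness is a description only. Ppfibp2 and Traf3ip3 share their locus entries with another gene.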

How the data were processed

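Poly(A) RNA of 8 libraries in 4 groups was sequenced. The submitters' processing notes name Bowtie2, Cufflinks 2.1, Cuffdiff and mm10 without saying which did what. Per the file headers, the authors deposited 1 FPKM value per gene and group, with the duplicates combined, and a q-value per time for the floxed line compared with the wild type line. The sources used here do not give the test behind the q-value, strandedness, the annotation or the depth per library. FPKM is relative to all other RNA and does not show a change in the total. Among genes under 0.05 FPKM the most common ratio of floxed to wild type values was 0.836 at 24 h (68 of 1274 genes within 0.002) and 1.07 at 48 h (41 of 995), which would be the relative worth of 1 fragment if it came from single fragments. That was not tested, and no interval or detection limit was computed.

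A q under 0.05 was a call, with its direction from the FPKM values, and q = 1 was read as not tested. Differences are log2(FPKM + 1), floxed minus wild type, and are small for low genes. The background was the 11158 of 23361 genes that reached 1 FPKM in a group, without 27 whose names had become numbers. The members and gene lists were chosen with earlier results of these data known. All 10 members are described. From each list, the called genes with the widest differences, at most 3 per direction and time, could be named. Itgam, Csf3r, Cebpg, Gfi1b, Gp9, Flt3, Itgax, Xcr1, Vwf, Ear6, Nr4a1, S100a8, Ly6c2, Il5ra, Ccr3, Siglecf, Fcer1a and Prtn3 were added after their values were seen. Ly6g and Trac had no row in the table, and Siglecf and Siglec5 shared 1. Alternatives were a q under 0.01, pseudocounts of 0.1 and 5, rescaling to the same sum or by the median ratio, no limit or 5 FPKM on low values, and leaving out Cebpd. The planned comparison of protein sequences was not made. Counting code was tested on simulated data. Python 3.11.15, pandas 2.3.3, NumPy 2.4.6 and matplotlib 3.10.9 were used.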

Additional observations from a re-analysis of the deposited data

Results flagged for a closer look

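None of the 10 factors was called in opposite directions at the 2 times. The share of all genes called so was not computed, so the counts here cannot be set against it. Among genes eligible for naming from the lists of related factors, targets and markers, 9 were called in opposite directions. The change of the difference between the lines is given here as the log2(FPKM + 1) difference at 48 h minus that at 24 h. It was positive, lower at 24 h and higher at 48 h in floxed cells, for Mmp9 (3.66), S100a9 (2.87), Lcn2 (2.76), Cd68 (1.86), Cybb (1.86), Irf9 (1.5), Maf (1.31) and Fcgr1 (1.16). It was negative for Mpo (-1.23), the myeloperoxidase of primary granules. Mpo stood at 1986 FPKM in floxed and 1145 FPKM in wild type cells at 24 h, and at 1011 FPKM in floxed and 1368 FPKM in wild type cells at 48 h. None of these changes with time was tested, since the table holds 1 value per group. Mmp9, Lcn2 and Mpo are C/EBP targets, and Cd68, Cybb and Fcgr1 are PU.1 targets.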

How the results depend on the processing

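No paired analysis was possible because the table holds 1 value per group, and for the same reason leaving out each duplicate was not run. With q under 0.01, 5 factors were called higher and 1 lower at 24 h, and 6 higher and 0 lower at 48 h. These numbers are within 1.5 times of 6 higher and 1 lower at 24 h and of 7 higher and 0 lower at 48 h. Cebpb at 24 h and Spi1 at 48 h lost their calls at q under 0.01. The other settings could change the counts only through the gene they add or remove. No limit on low values adds Gata2, which has no call. A limit of 5 FPKM removes Gata1, and another setting leaves out Cebpd, which was chosen after seeing the data. Each removes 1 gene called higher at both times, which leaves 5 and 6 higher. The median difference of the 9 expressed factors was 0.51 at 24 h, between 0.35 (pseudocount 5) and 0.53 (same sum) under the alternatives, and 0.62 at 48 h, between 0.47 and 0.70 (median ratio). Each called factor kept its direction under the 2 rescalings. The 2 pseudocounts could not turn a direction, since the same amount is added to both values. Only the sign of Spi1 at 24 h, which had no call, turned, from -0.01 to 0.01 with groups rescaled to the same sum. Rescaling to the same sum also moved the median of all genes at 48 h from -0.06 to -0.15. Depth is unknown, which limits the Gata1 and Gata2 values most.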
